A study of Mus musculus with 30 samples.

Results

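The genes described here are 38 genes of DNA replication and mitosis, listed by name. The rule uses no measured value, but the list was chosen with earlier results of these data known. Of the 38, 37 had a probe under their current symbol or a synonym, and 31 were detected, among 13226 genes tested in all. A probe counted as detected on an array where fewer than 5% of the probes for odorant and taste receptors, which stood in for negative controls, were as bright, and a gene was kept where this held on at least 5 of the 30 arrays. The 31 genes were the helicase subunits Mcm2, Mcm3, Mcm4, Mcm5, Mcm6 and Mcm7, with Pcna, Pclaf, Rrm1, Rrm2 and Tyms for DNA synthesis. Top2a, Hmgb2 and Mki67 act on chromosome structure, and Ccnd1, Ccnd2 and Cdk1 are 2 cyclins and a cyclin-dependent kinase. Aurka, Aurkb, Birc5, Plk1, Pbk, Bub1, Bub1b and Cdc20 belong to the mitotic kinases and the checkpoint, and Cenpa, Kif11, Kif22, Kif23, Nusap1 and Tpx2 to the centromere and the spindle. The other named probes were not above background on enough arrays: Ccnb2, Cenpe, Cenpf and Kif20a were detected on 0 of 30 arrays, and Ccna2 and Ube2c on 2 each, all of them neuron arrays. Ccnb1 was not analysed here. Of the 31, 11 were detected on all 30 arrays, and 9 (Mcm2, Mcm3, Pclaf, Rrm2, Top2a, Mki67, Cdk1, Aurkb and Kif11) reached the 5 arrays only through neuron arrays, so that a difference of neurons from the rest was built into their detection.

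RNA came from the nucleus accumbens, a ventral part of the striatum, of C57BL/6J mice. The mice had received saline or, at 4 mg/kg, dexamethasone, which activates the glucocorticoid receptor, and expression was analysed 4 h later. Astrocytes and neurons sorted magnetically, and unsorted tissue, each gave 5 arrays under saline and 5 under dexamethasone, so that 6 groups made up the 30 arrays, with 1 mouse per array. The 6 arrays of a replicate number shared 1 chip, and every group had a fixed chip position, so chip position and group cannot be told apart. No group carried a transgene or a deletion according to the labels, which give no age. The labels do not say whether the preparations of a replicate number came from the same mouse.

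Before a cell divides, the replicative helicase, whose core is the ring of Mcm2 to Mcm7 proteins, is loaded on DNA and opens it, and Pcna clamps the polymerases to the template while ribonucleotide reductase and thymidylate synthase supply nucleotides. Mitosis then runs on Cdk1 with its cyclins, on the Aurora and Polo-like kinases, and on a checkpoint that holds Cdc20 back until all chromosomes are attached to the spindle. Most of these genes are transcribed only in cells that cycle, the replication genes earlier than the mitotic ones. Neurons and most astrocytes of the adult brain have left the cell cycle, whereas neural progenitors of the neighbouring subventricular zone, oligodendrocyte precursors and some microglia and endothelial cells keep dividing.

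The sorted fractions were first checked against marker genes. All 20 detected astrocyte markers, of 21 listed, were higher in the astrocyte arrays than in tissue under saline. There 24.2% of all genes were higher and 27.6% lower. Of 12 endothelial markers 11 were also higher, and of 9 mural markers 6, with 0 lower in each. Of 14 microglial markers 6 were lower, of 10 oligodendrocyte markers 5 and of 12 medium spiny neuron markers 12, with 0 higher in each. In the neuron arrays 8 of 12 detected markers of medium spiny neurons, the main neuron type of the region, were higher than in tissue and 0 lower. Of 13 general neuronal genes 1 was higher and 5 lower, beside 11.0% and 15.9% of all genes. Between 36.2% and 50.1% of probes were detected on an array, and the extreme value of 50.1% came from tissue dexamethasone replicate 5. The tissue dexamethasone arrays correlated with each other at 0.909 to 0.954 (the mean r of an array with the rest of its group), against 0.956 to 0.980 in the other groups. Without tissue dexamethasone replicate 5 the cell division genes called against tissue numbered 27 higher and 1 lower in neurons and 3 higher and 3 lower in astrocytes, the same counts as with it, but Pcna was no longer among those higher in astrocytes.

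The neuron arrays carried more RNA of most cell division genes than unsorted tissue did. Among the 11 genes detected on all 30 arrays, 10 were higher in neurons than in tissue under saline and 1, Ccnd1, was lower, at an adjusted p under 0.05 in limma's moderated test. Their median difference was 2.20 on the log2 scale, where the median of all 13226 genes was 0.00407, and 11.0% of all genes were higher and 15.9% lower. With all 37 genes that had a probe, and no filter on dim probes, 28 were higher and 1 lower, against 6.31% and 9.56% of 20616 genes. Under dexamethasone, in separate samples, the counts were 8 higher and 1 lower of 11 genes, with backgrounds of 11.0% and 13.1%, and 27 higher and 1 lower of 37, with backgrounds of 6.43% and 8.12%. In these bulk samples more cells of a type and more RNA per cell cannot be told apart. The size depended on the background step, since the median difference of the 31 genes was 2.24 with and 1.31 without background correction, with 28 and 29 genes called higher. With each array scaled to its 75th percentile 28 genes were higher and 1 lower under saline and 27 and 1 under dexamethasone, although the calls over all genes moved from 1461 higher and 2097 lower to 2070 and 1689 under saline, and from 1456 and 1733 to 2426 and 1396 under dexamethasone.

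**Figure D1:**
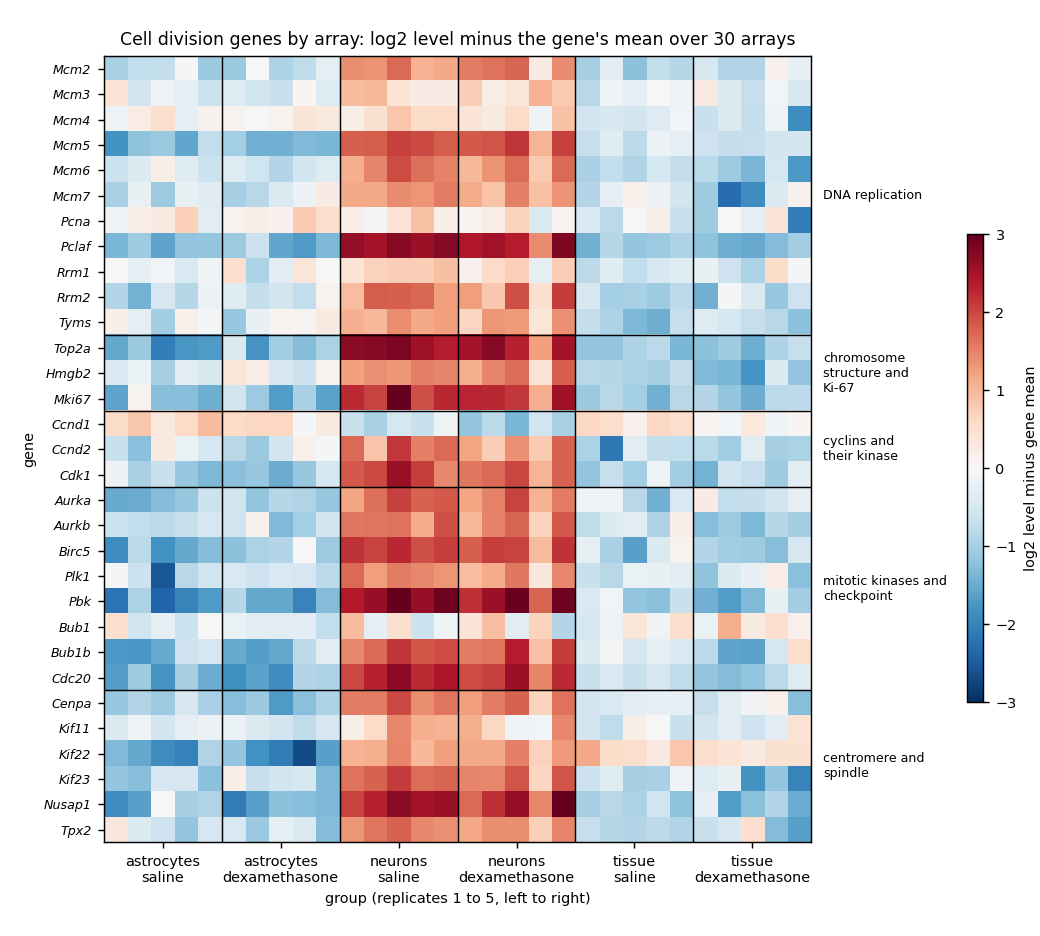
Each square is 1 gene (row) on 1 array (column, replicates 1 to 5 from left to right within each of the 6 groups), coloured by its log2 level minus the mean of that gene over the 30 arrays. The 10 neuron columns are red for nearly every gene, with Ccnd1 in blue and Bub1 mixed, and neuron dexamethasone replicate 4 is the palest of them.

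**Figure D2:**
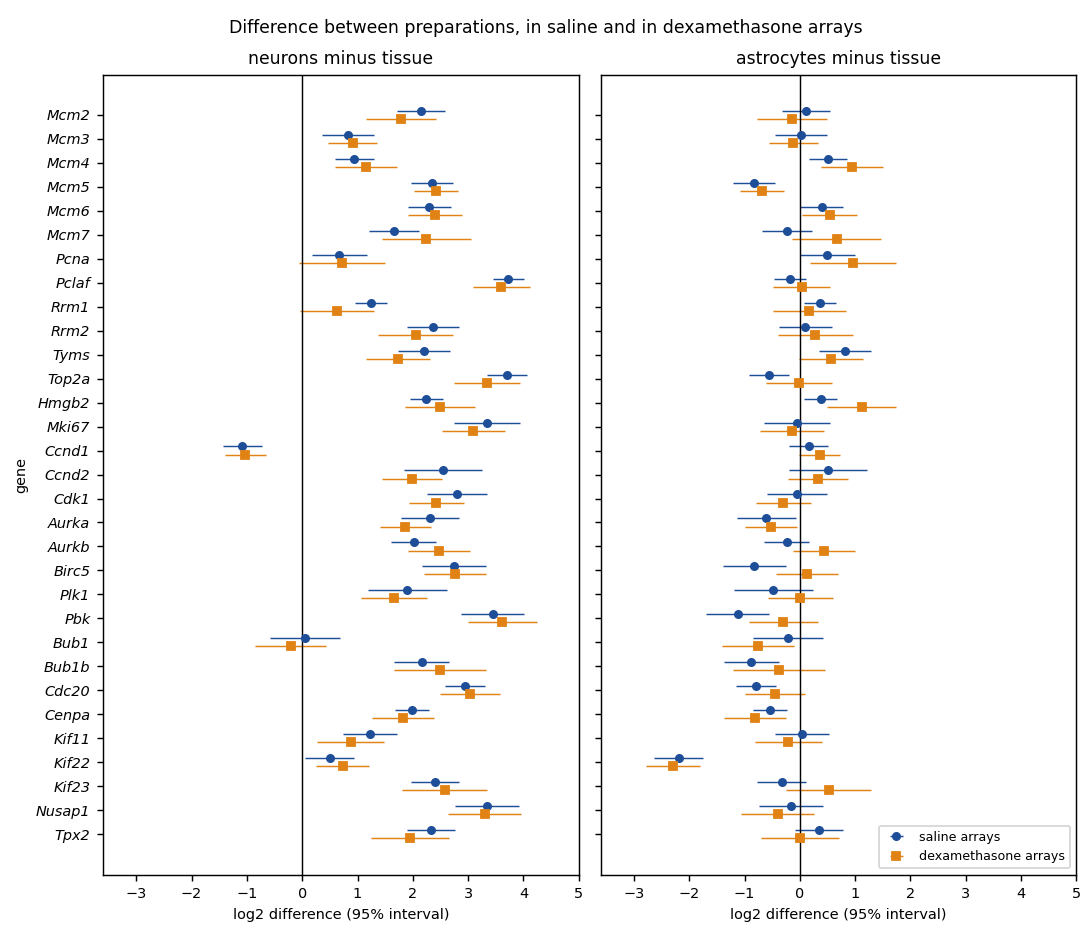
The points give the log2 difference between preparations with its 95% interval for each of the 31 genes, neurons minus tissue on the left and astrocytes minus tissue on the right, circles for the saline arrays and squares for the dexamethasone arrays. The neuron points lie above 0 under saline for most genes and below 0 for Ccnd1, with genes not detected in tissue drawn at their measured difference rather than at a bound, and the astrocyte points lie between -1.12 and 1.12 apart from Kif22.

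Promoters are shown for 3 replication genes and 3 mitotic genes, each called higher in neurons than in tissue under saline, Pcna narrowly. These promoters entered no test. They come from RefSeq (GRCm38.p6), 250 bases before and 50 after the gene's start, read on the gene's strand. They lie at chr9:65890073-65890372 (Pclaf, plus strand), chr8:75109259-75109558 (Mcm5, plus), chr2:132253131-132253430 (Pcna, minus), chr11:99024140-99024439 (Top2a, minus), chr10:69352863-69353162 (Cdk1, minus) and chr4:118437294-118437593 (Cdc20, minus). Capitals mark matches, on either strand, to 3 motifs of cell cycle promoters: an E2F motif (TTTCCCGC, TTTGGCGC, TTTCGCGC or TTTGCCGC), the CHR motif TTTGAA and the CCAAT box. Overlapping matches are merged in the capitals, as for the E2F matches of Mcm5.
Pclaf: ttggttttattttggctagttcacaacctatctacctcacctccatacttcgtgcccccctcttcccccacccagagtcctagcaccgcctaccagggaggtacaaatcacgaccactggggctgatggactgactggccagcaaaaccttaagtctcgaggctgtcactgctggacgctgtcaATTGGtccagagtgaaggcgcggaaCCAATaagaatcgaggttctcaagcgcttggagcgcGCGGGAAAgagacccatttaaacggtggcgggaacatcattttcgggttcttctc
Mcm5: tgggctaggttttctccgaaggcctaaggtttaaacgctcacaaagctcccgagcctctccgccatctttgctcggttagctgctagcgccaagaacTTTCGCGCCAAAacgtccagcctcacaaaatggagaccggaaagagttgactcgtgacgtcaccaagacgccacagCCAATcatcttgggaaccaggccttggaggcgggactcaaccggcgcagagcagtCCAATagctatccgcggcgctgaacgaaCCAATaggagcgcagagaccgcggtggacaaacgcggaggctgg
Pcna: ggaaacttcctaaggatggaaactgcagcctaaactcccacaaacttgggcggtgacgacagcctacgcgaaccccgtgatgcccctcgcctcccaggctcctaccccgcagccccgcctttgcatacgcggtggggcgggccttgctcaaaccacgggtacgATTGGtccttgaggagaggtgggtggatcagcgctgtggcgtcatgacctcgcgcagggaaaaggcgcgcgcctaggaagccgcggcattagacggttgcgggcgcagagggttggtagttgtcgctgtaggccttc
Top2a: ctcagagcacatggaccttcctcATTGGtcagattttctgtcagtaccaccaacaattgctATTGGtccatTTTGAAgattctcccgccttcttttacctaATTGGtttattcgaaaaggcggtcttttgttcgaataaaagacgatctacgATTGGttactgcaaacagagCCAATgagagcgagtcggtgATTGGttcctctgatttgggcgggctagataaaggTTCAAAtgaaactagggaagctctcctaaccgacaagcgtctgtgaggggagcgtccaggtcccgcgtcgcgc
Cdk1: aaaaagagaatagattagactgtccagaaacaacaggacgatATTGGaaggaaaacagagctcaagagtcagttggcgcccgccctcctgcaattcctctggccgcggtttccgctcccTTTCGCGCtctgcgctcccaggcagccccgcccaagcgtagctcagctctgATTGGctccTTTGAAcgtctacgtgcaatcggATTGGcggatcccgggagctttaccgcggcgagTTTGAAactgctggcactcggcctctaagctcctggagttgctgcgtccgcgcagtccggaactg
Cdc20: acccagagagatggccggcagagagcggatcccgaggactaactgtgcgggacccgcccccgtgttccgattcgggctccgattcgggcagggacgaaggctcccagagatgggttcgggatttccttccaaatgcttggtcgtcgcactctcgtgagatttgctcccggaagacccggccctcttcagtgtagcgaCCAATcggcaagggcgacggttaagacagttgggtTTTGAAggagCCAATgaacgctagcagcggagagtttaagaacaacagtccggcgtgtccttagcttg
Of the 38 genes, 30 had such a window. The E2F spellings occurred in 6 of 30 (20.0%) and in 2.6% of 27025 genes with a window, in 5 of the 10 replication genes and 1 of the 20 others. The CHR motif occurred in 16 of 30 (53.3%), against 20.2% of all genes, with 1 of 10 replication genes and 15 of 20 others. CCAAT was present in 27 of 30 (90.0%), against 41.1% of all. Pcna carries only the CCAAT box of these 3. A match is a description of letters in this window, and no binding was measured.

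Among the genes of DNA replication, Mcm5, a helicase subunit, separated the preparations clearly. Its log2 levels on the neuron saline arrays were 10.76, 10.78, 11.01, 10.94 and 10.78, on the tissue saline arrays 8.28, 8.61, 8.18, 8.79 and 8.69, and on the astrocyte saline arrays 7.18, 7.75, 7.86, 7.42 and 8.23. Every neuron array was above every tissue and astrocyte array, and tissue and astrocytes overlapped. The difference of neurons from tissue was 2.34 ± 0.18 (SE, n = 5 and 5), which is 5.08-fold (limma, adjusted p = 1.38e-07). Astrocytes were lower than tissue, with a difference of -0.82 ± 0.18 (adjusted p = 0.00106). In dexamethasone arrays Mcm5 differed by 2.42 between neurons and tissue.

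Pclaf, a Pcna-binding factor made in S phase, was not detected on any tissue or astrocyte array. Its levels on the neuron saline arrays were 9.50, 9.36, 9.60, 9.44 and 9.59, against 5.42, 6.02, 5.69, 5.77 and 5.95 on the tissue saline arrays, without overlap. Neurons were at least 7.87-fold higher than tissue (measured means 9.50 and 5.77, limma, adjusted p = 1.24e-10) and at least 6.78-fold higher than astrocytes. Such a bound sets the mean of the bright group against the higher, per array, of the dim probe and the dimmest detected probe. The same bound is used below for a gene detected on only 1 or 2 arrays of the dim group. Mcm2 was at least 2.69-fold higher in neurons than tissue under saline. Mcm3 was also called higher, but was detected on only 2 of 5 neuron saline arrays, so it has no bound here. Pclaf, Mcm2 and Mcm3 passed the detection filter only through neuron arrays, so a difference of neurons was built in before the test.

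The remaining helicase subunits and nucleotide enzymes were also higher in neurons. Under saline the difference from tissue was 2.30 ± 0.18 for Mcm6 and 1.66 ± 0.21 for Mcm7. At other detected probes it was 2.02 and 2.14 for Mcm6 and 1.09 for Mcm7. Rrm2, the small subunit of ribonucleotide reductase, was detected on 1 of the 5 tissue saline arrays, which puts neurons at least 3.82-fold above tissue, while its 2 other detected probes gave log2 differences of 0.61 and 2.59. Rrm1, the large subunit, differed by 1.24 ± 0.14 and Tyms, thymidylate synthase, by 2.20 ± 0.22. The 4 other detected probes of Tyms disagreed with this size and gave -0.07, 0.13, 0.43 and 1.49. Mcm4 was 10.82, 11.08, 11.45, 11.17 and 11.22 in neurons and 10.04, 10.15, 10.06, 10.23 and 10.54 in tissue under saline. The groups did not overlap, but the difference was only 0.94 ± 0.17 (limma, adjusted p = 4.79e-04). Pcna, the sliding clamp, was 8.67, 8.41, 8.92, 9.36 and 8.68 on neuron saline arrays and 8.01, 7.66, 8.50, 8.67 and 7.82 on tissue saline arrays, and these groups overlapped. Its difference of 0.67 ± 0.24 passed narrowly (adjusted p = 0.0442) and did not pass without a filter on dim probes, with all 30 arrays in one fit, or on leaving out neuron saline replicate 1, 3, 4 or 5 or tissue saline replicate 1, 2 or 5. Under dexamethasone Pcna and Rrm1 did not pass, at 0.73 ± 0.37 and 0.63 ± 0.31.

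Among the genes that act on chromosome structure, Top2a, the topoisomerase that untangles sister chromatids, separated neurons from the rest. Its levels on the neuron saline arrays were 10.12, 10.13, 10.25, 9.96 and 9.77, on the tissue saline arrays 6.25, 6.26, 6.50, 6.64 and 6.04 and on the astrocyte saline arrays 5.88, 6.30, 5.34, 5.67 and 5.72. The neuron arrays stood wholly apart, and Top2a was detected on 1 of the 5 tissue and 0 of the 5 astrocyte saline arrays. At this probe neurons were at least 11.3-fold above tissue (limma, adjusted p = 6.34e-10). The other detected probe of Top2a gave a smaller log2 difference of 2.59. Mki67, the gene of the Ki-67 antigen that marks cycling cells, was 9.32, 9.10, 10.12, 9.02 and 9.33 on neuron saline arrays and 5.96, 6.24, 6.06, 5.63 and 6.26 on tissue saline arrays, where it was not detected. This set neurons at least 7.23-fold above tissue (adjusted p = 3.16e-07). Top2a and Mki67 passed the detection filter only through neuron arrays, so a difference of neurons was built in before these tests. Hmgb2, a chromatin protein of dividing and progenitor cells, was 10.90, 11.03, 10.96, 11.16 and 11.12 in neurons, 8.82, 8.79, 8.71, 8.67 and 8.95 in tissue and 9.21, 9.47, 8.66, 9.34 and 9.17 in astrocytes under saline. Neurons stood apart, while astrocytes and tissue overlapped. It was 2.24 ± 0.14 higher in neurons than in tissue and 0.38 ± 0.14 higher in astrocytes than in tissue. The call in astrocytes was lost with all 30 arrays in one fit and on leaving out some single arrays.

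**Figure D3:**
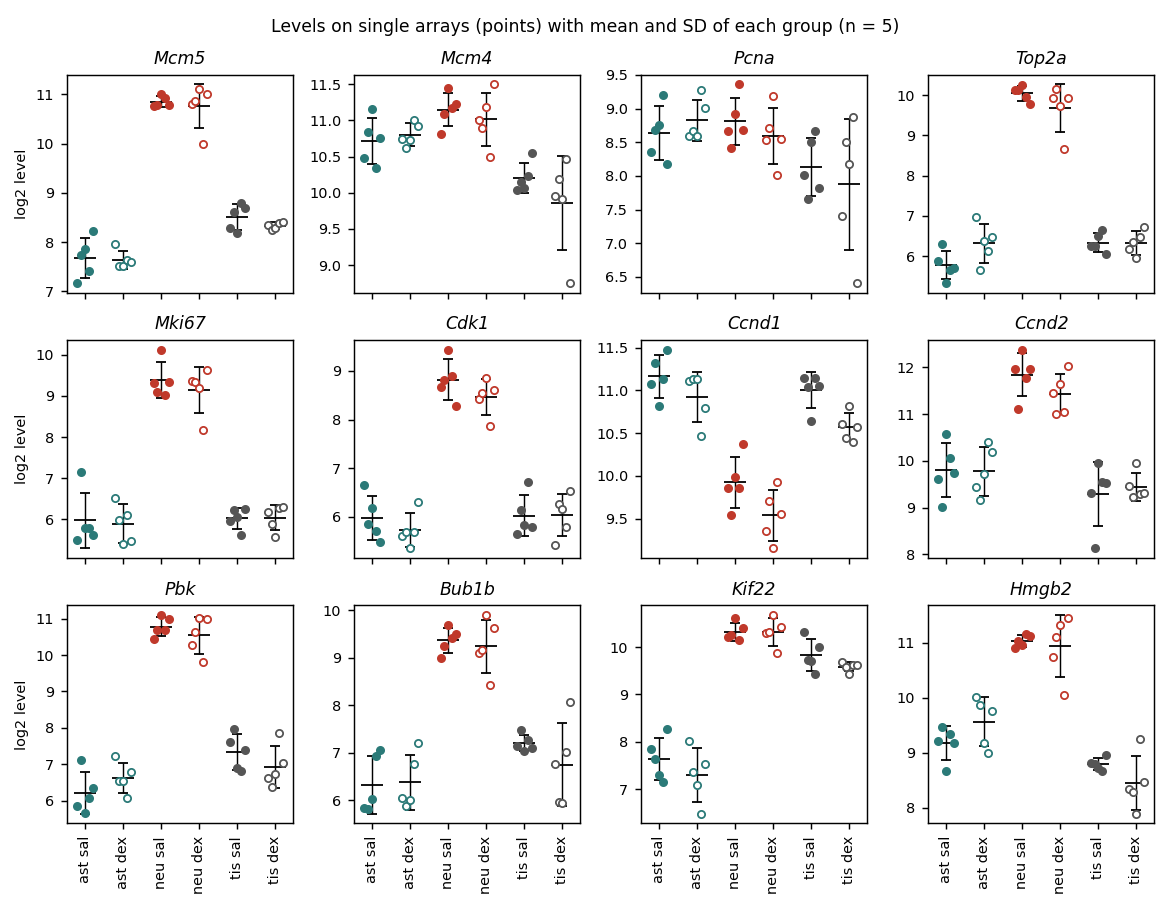
Log2 levels of 12 genes on single arrays, filled points for saline and open points for dexamethasone, with the mean and SD of each group of 5; the abbreviations ast, neu and tis stand for astrocytes, neurons and tissue. Neurons lie above both other preparations in most panels, while Pcna, Mcm4 and Kif22 overlap at least 1 of them, and Ccnd1 runs the opposite way.

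The 2 D-type cyclins went in opposite directions. Ccnd2 levels were 11.96, 11.12, 12.38, 11.77 and 11.97 on neuron saline arrays and 9.31, 8.13, 9.95, 9.55 and 9.53 on tissue saline arrays, and Ccnd1 levels were 9.85, 9.55, 9.98, 9.85 and 10.37 and 11.15, 11.04, 10.64, 11.14 and 11.05. All neuron arrays were above all tissue arrays for Ccnd2 and below them for Ccnd1. The differences were 2.55 ± 0.33 for Ccnd2 (limma, adjusted p = 2.90e-05) and -1.08 ± 0.17 for Ccnd1 (adjusted p = 1.37e-04). The 2 other detected probes of each gene had the same sign. Ccnd1 is a cyclin of the early cycle, and astrocytes held 11.08, 11.32, 10.82, 11.13 and 11.47, and Ccnd1 was the only 1 of 37 genes called higher in astrocytes than in neurons under saline (1.24 ± 0.17, adjusted p = 6.78e-06). Cdk1, the kinase that drives entry into mitosis, was 8.67, 8.82, 9.43, 8.90 and 8.27 in neurons and 5.65, 6.14, 5.83, 6.71 and 5.79 in tissue under saline, without overlap. It was at least 4.77-fold higher in neurons (adjusted p = 7.25e-07), since 1 of the 5 tissue saline arrays detected it. Cdk1 passed the detection filter only through neuron arrays, so a difference of neurons was built in before this test. Over both treatments it was detected on all 10 neuron arrays, 2 of 10 tissue arrays and 0 of 10 astrocyte arrays.

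The mitotic kinases and checkpoint genes followed the same order, except Bub1. Pbk, a mitotic kinase, was 10.45, 10.69, 11.09, 10.69 and 11.00 on the neuron saline arrays, 7.60, 7.98, 6.90, 6.81 and 7.40 on the tissue saline arrays and 5.85, 7.11, 5.67, 6.07 and 6.36 on the astrocyte saline arrays. Neurons did not overlap either preparation, whereas tissue and astrocytes did. The difference of neurons from tissue was 3.44 ± 0.27 (limma, adjusted p = 1.47e-07). Cdc20, the activator of the anaphase-promoting complex, was 9.57, 9.89, 10.27, 9.82 and 10.05 in neurons, 6.93, 7.14, 6.92, 7.08 and 6.82 in tissue and 5.93, 6.53, 5.82, 6.60 and 6.09 in astrocytes under saline. Its 3 preparations did not overlap, and neurons differed from tissue by 2.94 ± 0.17. The other detected probes of Cdc20 gave 2.51, 1.00 and 2.29. Birc5, the chromosomal passenger survivin, differed by 2.74 ± 0.27, and Bub1b, the checkpoint kinase BubR1, by 2.16 ± 0.24. At other detected probes the differences were 2.94 and 3.83 for Birc5 and 1.15 for Bub1b. Aurka, the Aurora kinase of the spindle poles, differed by 2.31 ± 0.25, its relative Aurkb by 2.02 ± 0.19 and Plk1, the Polo-like kinase, by 1.90 ± 0.34. Of these, Birc5, Aurka and Aurkb were each detected on 3 of the 5 tissue saline arrays. Aurkb passed the detection filter only through neuron arrays. Cdc20, Birc5, Bub1b, Aurka, Aurkb and Plk1 all passed the test. For each of them the neuron and tissue groups did not overlap, as held in this direction for 9.37% of all genes. Bub1, a checkpoint kinase at the kinetochore, was detected on 9 arrays and gave 0.05 ± 0.30, which did not pass (95% interval -0.58 to 0.69).

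Among centromere and spindle genes, Kif22 had a pattern of its own. This chromosome-arm kinesin was 10.21, 10.26, 10.62, 10.14 and 10.40 on neuron saline arrays, 10.31, 9.72, 9.70, 9.43 and 9.99 on tissue saline arrays and 7.84, 7.63, 7.30, 7.14 and 8.27 on astrocyte saline arrays. Neurons and tissue overlapped and astrocytes lay below both. Astrocytes differed from tissue by -2.19 ± 0.21 (limma, adjusted p = 2.09e-07) and neurons from tissue by 0.50 ± 0.21 (adjusted p = 0.0890), which did not pass under saline. Nusap1, a microtubule-bundling protein of the spindle, was 9.67, 9.96, 10.36, 10.16 and 10.25 in neurons and 6.65, 6.81, 6.69, 7.07 and 6.45 in tissue under saline. The groups did not overlap and differed by 3.35 ± 0.27 (adjusted p = 2.48e-07), with 4 of the 5 tissue arrays above background. Kif23, a kinesin of cytokinesis, differed by 2.40 ± 0.21, and by 1.92 at its other detected probe. Tpx2, an activator of Aurka, was detected on 1 of the 5 tissue saline arrays, with neurons at least 4.48-fold above. Cenpa, the centromeric histone, detected on all 30 arrays, differed by 1.99 ± 0.15. Kif11, the kinesin that separates the spindle poles, was called higher in neurons than in tissue. It was detected on only 3 of 5 neuron saline arrays, so it has no bound here.

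Astrocytes and tissue were much closer to each other. Under saline 4 of the 31 genes were higher in astrocytes and 8 lower, with backgrounds of 24.2% and 27.6% of all genes, and with no filter 4 and 8 of 37, with backgrounds of 15.6% and 17.4%. The 4 were Tyms (0.82 ± 0.22), Mcm4 (0.51 ± 0.17), Hmgb2 (0.38 ± 0.14) and Rrm1 (0.36 ± 0.14), all detected on every array. Rrm1 lost its call without background correction, with a trended, robust variance model and with all 30 arrays in one fit. It also lost it without astrocyte saline replicate 1, 3 or 5 or tissue saline replicate 1 or 3. Hmgb2 and Mcm4 lost theirs with all 30 arrays in one fit. Hmgb2 also lost it without astrocyte saline replicate 1, 2 or 4 or tissue saline replicate 3 or 4. The 4 other detected probes of Tyms gave 0.38, -0.27, 0.12 and 0.14, and Tyms lost its call, at 0.24, with the mean over detected probes. The 8 were Kif22, Mcm5, Cenpa (-0.55 ± 0.15), Pbk, Bub1b, Cdc20, Birc5 and Top2a, of which the last 5 were dim in astrocytes. Pbk and Cdc20 were detected on 1 of the 5 astrocyte saline arrays and Bub1b on 2, and they were at least 1.45-fold, 1.17-fold and 1.25-fold lower than in tissue. Birc5 was detected on 0 astrocyte and only 3 tissue saline arrays, so it has no bound here. It lost its call with 75th percentile scaling and without tissue saline replicate 5. Top2a was detected on 0 and 1 of the 5 arrays, so its call rests on background values and has no size here, and it lost the call with 75th percentile scaling, with the mean over detected probes and with all 30 arrays in one fit. Log2 differences at the other detected probes were 0.16, -0.25 and -0.55 for Cdc20, 0.11 for Top2a, -0.20 for each of 2 of Birc5 and -0.23 for Bub1b. With each array scaled to its 75th percentile the median of the 31 genes turned from -0.16 to 0.10, while the median of all genes moved from -0.04 to 0.08, and 4 genes were higher and 6 lower. The count of higher genes was 7 with the replicate number as a block, 1 with all 30 arrays in one fit, and 2 without astrocyte saline replicate 1 or tissue saline replicate 3. Under dexamethasone Hmgb2 (1.12 ± 0.30), Pcna (0.96 ± 0.37) and Mcm4 (0.95 ± 0.26) were higher in astrocytes than in tissue, and Kif22, Cenpa and Mcm5 lower, with backgrounds of 23.2% and 22.8%. Pcna did not pass there with the replicate number as a block, or without any 1 of the 5 astrocyte arrays or tissue dexamethasone replicate 1 or 5. Cenpa lost its call there without astrocyte dexamethasone replicate 3 or tissue dexamethasone replicate 3 or 4. With no filter these counts were 2 and 3 of 37, with backgrounds of 14.5% and 14.3%. These comparisons share the tissue arrays with those of neurons.

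Set against neurons, astrocytes were lower for 28 of 31 genes and higher for 1 under saline, where 31.2% and 26.9% of all genes were called. With no filter the counts were 29 lower and 1 higher of 37, against 19.6% and 17.6%. Bub1 and Pcna did not pass under saline. Mcm4 passed, but lost its call with all 30 arrays in one fit. It also lost it without astrocyte saline replicate 1 or 4 or neuron saline replicate 3, 4 or 5. Pbk, detected on 1 of the 5 astrocyte saline arrays, was at least 15.7-fold lower there than in neurons (limma, adjusted p = 4.40e-10). Under dexamethasone 26 were lower and 1 higher, with backgrounds of 27.7% and 25.4%, and with no filter 26 and 1 of 37, with backgrounds of 17.4% and 16.4%. Mcm4, Pcna, Rrm1 and Bub1 did not pass there.

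Other genes of the same processes, not among the 38, were also higher in neurons than in tissue under saline. Of 31 detected replication genes (of 39 listed) 22 were higher and 0 lower, with a median of 1.14, and of 41 detected mitosis genes (of 56 listed) 31 were higher and 2 lower, with a median of 1.39. The replication genes with the smallest p included Uhrf1, which recruits the maintenance methyltransferase (3.32 ± 0.17), the polymerase delta subunit Pold1 (1.44 ± 0.14), the histone chaperone subunit Chaf1b (at least 4.30-fold) and thymidine kinase Tk1 (at least 3.52-fold), with Chaf1b detected on 1 and Tk1 on 0 of the 5 tissue saline arrays. Among mitosis genes those with the smallest p were Cdca3 (2.80 ± 0.21) and, detected on 0 of the 5 tissue saline arrays, Cdca2 (at least 5.85-fold), Troap (at least 3.31-fold) and the kinesin Kif2c (at least 3.13-fold), and Anln (-0.76 ± 0.16) and Fam83d (-0.48 ± 0.15) were lower. Of 19 detected genes that control the G1 phase, 7 were higher, E2f2 (2.35 ± 0.31), Cdk4 (1.13 ± 0.12), Tfdp2, Rbl1, Skp2, Cdk2 and Cdc25a, and 1 was lower, the D-type cyclin Ccnd3 (-0.66 ± 0.14). Of 7 inhibitor genes Cdkn3 (1.70 ± 0.29, detected on 3 of 5 tissue saline arrays) and Cdkn2c (0.73 ± 0.23) were higher. The lists were described beside 11.0% of all genes higher and 15.9% lower, and Cdc7 stands in both the replication and the mitosis list. They too were chosen with earlier results of these data known. Their counts hold only genes that passed the detection filter, which neuron arrays alone could meet. Counts without the filter are not given, so these lists are not separate support.

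Markers of several dividing or immature cell types moved with the cell division genes. Their counts stand beside 11.0% of all genes higher and 15.9% lower in neurons than in tissue under saline. The mean log2 level of the 31 genes was 9.35 to 9.74 on neuron saline arrays, 7.36 to 7.53 on tissue saline arrays and 7.13 to 7.31 on astrocyte saline arrays. That of 18 detected neuroblast and progenitor markers (of 21 listed) was 9.65 to 9.88, 8.61 to 8.91 and 7.99 to 8.32 in the same order, and 11 of the 18 were higher in neurons than tissue and 1, Stmn2, lower. The markers with the smallest p were Sox11 (2.10 ± 0.15), Igfbpl1 (2.77 ± 0.24), Dlx2 (2.37 ± 0.22) and Dlx1 (2.06 ± 0.22), and Dcx, the defining marker of neuroblasts, averaged 11.3 in neurons, 9.87 in tissue and 6.92 in astrocytes under saline. Markers of erythroid cells behaved alike, with 10.99 to 11.51, 9.12 to 9.49 and 8.93 to 9.29, and 6 of 10 detected (of 21 listed) higher and 0 lower, among them Alas2 (5.39 ± 0.34), Slc4a1 (3.57 ± 0.23), Hbb-b2 (4.31 ± 0.28, detected on 3 of 5 tissue saline arrays) and Slc25a37 (2.09 ± 0.17). The erythroid regulators Klf1 and Gata1 were each detected on 2 of 5 neuron saline arrays, against 3 and 1 of 5 astrocyte saline arrays, and Epb42 and Rhd on 0 of 30.

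Markers of other types that hold dividing cells varied. Of 11 oligodendrocyte precursor markers 9 were lower and 0 higher in neurons than in tissue, with mean levels of 8.83 to 9.64 against 10.47 to 10.75, and all 14 detected microglial markers were lower, 6.48 to 6.76 against 9.72 to 9.97. Of 12 endothelial markers 8 were higher and 0 lower, 10.11 to 10.86 against 9.32 to 9.66, although astrocyte arrays held 9.94 to 10.99. Of 11 leukocyte markers 2 were higher and 2 lower. In the same comparison 11.0% of all genes were higher and 15.9% lower. The part of these cell types in the levels of the cell division genes was not tested.

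**Figure D4:**
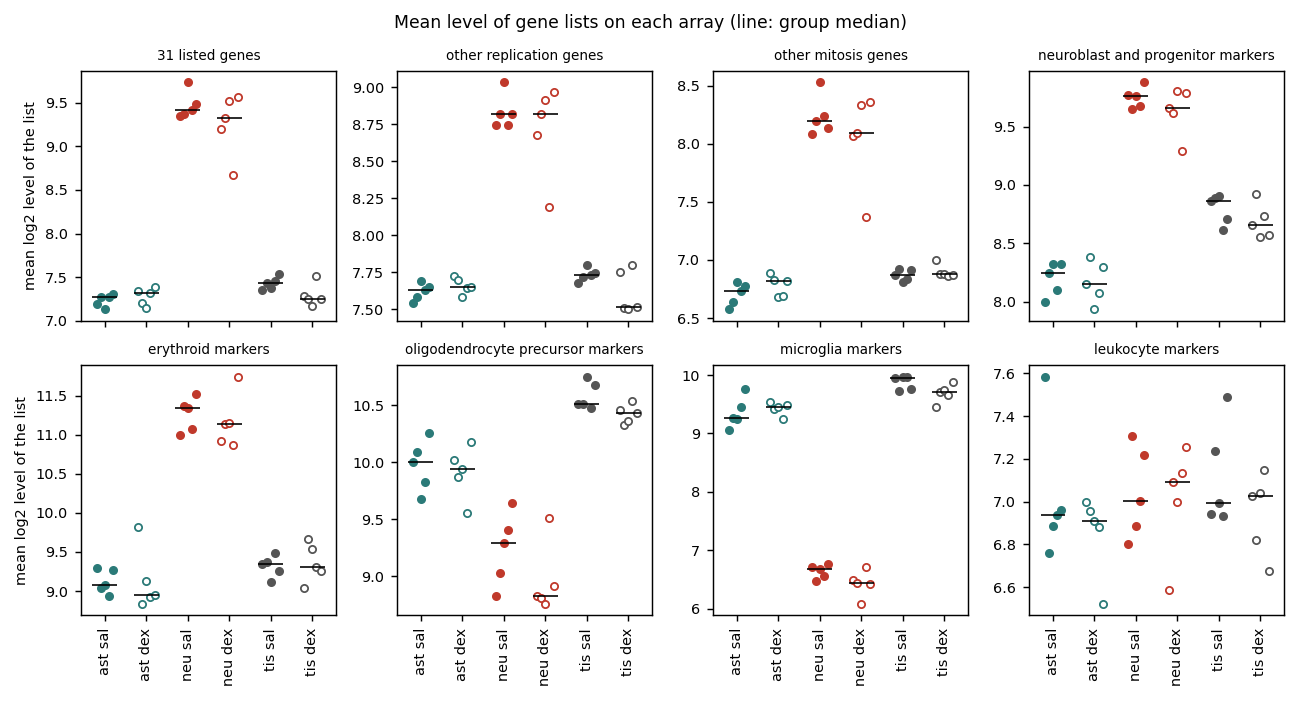
Mean log2 level on each array of the 31 cell division genes, of the 2 further pathway lists and of 5 marker lists, filled points for saline and open points for dexamethasone, with a line at each group's median. The neuron arrays are highest for the cell division genes, the neuroblast and progenitor markers and the erythroid markers, and lowest for the microglia and oligodendrocyte precursor markers.

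None of the 31 genes passed the test for a change with dexamethasone in any preparation. In limma's test 0 rose and 0 fell in astrocytes, where 1.41% of all genes rose and 0.363% fell, 0 and 0 in neurons, where no gene of the 13226 passed (0% each way), and 0 and 0 in tissue, where 0.0378% rose and 0% fell. At an unadjusted p under 0.05 there were 1 in astrocytes, 0 in neurons and 2 in tissue, against 10.1%, 7.04% and 5.68% of all genes. Among the genes detected on all 10 arrays of a preparation, the 95% interval lay within a 2-fold change for 12 of 12 in astrocytes, 28 of 28 in neurons and 11 of 13 in tissue, and the bounds ran from -1.26 to 0.95. Each interval shows how precisely the change of a gene was estimated with 5 arrays per group. An interval that holds 0 does not show that the gene was unchanged. The other genes, 19, 3 and 18 of 31, were at background on at least 1 array, and their intervals put no limit on a change.

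The gene at the unadjusted threshold in astrocytes was Birc5, at 5.57, 6.62, 5.62, 5.91 and 6.13 under saline and 6.22, 6.48, 6.55, 7.46 and 6.34 under dexamethasone. The groups overlapped, limma's adjusted p was 0.417, and Birc5 was detected on 0 of the 5 saline and 1 of the 5 dexamethasone arrays, so these are mostly background values and give no size of change. Top2a, detected on as many of them, went from 5.88, 6.30, 5.34, 5.67 and 5.72 to 6.98, 5.65, 6.38, 6.12 and 6.47 and did not pass either (adjusted p = 0.497). In tissue Aurkb was 6.30, 6.68, 6.76, 6.15 and 7.27 under saline and 5.80, 5.98, 5.73, 6.23 and 6.02 under dexamethasone, detected on 3 and 0 of the 5 arrays (adjusted p = 0.654). Ccnd1 in tissue was 11.15, 11.04, 10.64, 11.14 and 11.05 and 10.61, 10.45, 10.81, 10.39 and 10.58, a difference of -0.44 ± 0.16 (adjusted p = 0.742). In both genes the saline and dexamethasone arrays overlapped.

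**Figure D5:**
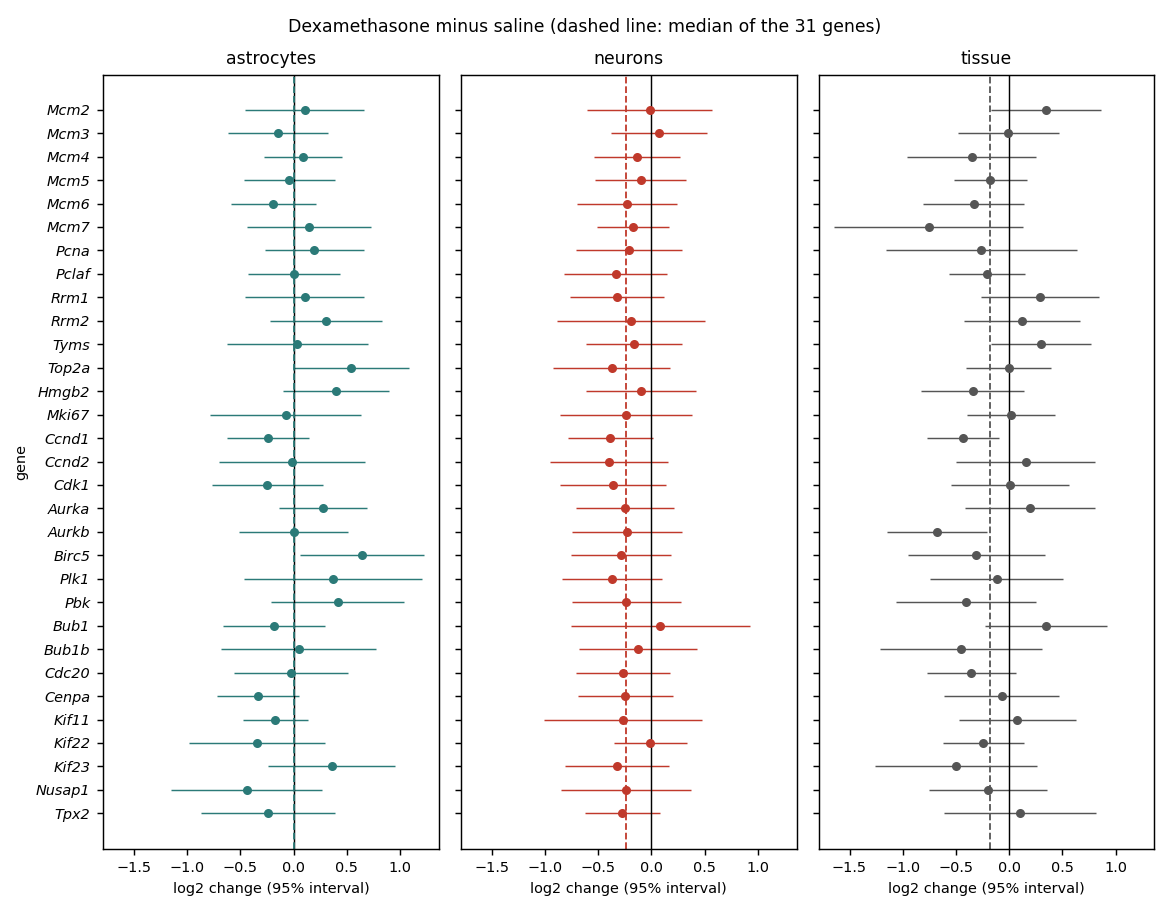
Log2 change with dexamethasone and its 95% interval for each of the 31 genes in astrocytes, neurons and tissue, with a dashed line at the median of the 31. The intervals of most genes include 0, and in neurons 29 of 31 points lie below it.

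In neurons the 31 changes were small and mostly negative, 29 of 31 below 0, between -0.40 and 0.08, with a median of -0.24, where 52.0% of all genes were below 0 and their median was -0.01. The mean level of the 31 genes was 9.35, 9.38, 9.74, 9.42 and 9.48 on the neuron saline arrays and 9.20, 9.33, 9.52, 8.68 and 9.57 on the neuron dexamethasone arrays. Replicate 4 under dexamethasone was the lowest of these 10 arrays and the others overlapped. Without it the median was -0.07 and 24 of 31 were below 0. On that array the neuroblast and progenitor markers averaged 9.29, against 9.65 to 9.88 under saline, and the erythroid markers 10.9, and the part of either in the value was not tested. Other marker lists had larger median changes between the neuron groups, and 0 genes of each were called, as for all 13226 genes. The astrocyte markers had a median change of -0.95, with 15 of 20 at an unadjusted p under 0.05 and mean levels of 8.06 to 8.79 against 8.71 to 9.89. When the response was compared between preparations, 5 of these 20 were called higher for astrocytes against neurons, beside 0.741% of all genes. For neurons against tissue 2 of the 20 were called lower, beside 0.0529%. The median changes were -0.53 for oligodendrocyte, -0.40 for mural and -0.31 for endothelial markers, and their part was not tested. Astrocytes gave a median of 0.00343 and tissue -0.18, with 20 of 31 below 0 where 56.9% of all genes were.

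The response to dexamethasone was also compared between preparations through an interaction term. Of the 31 genes 0 passed in limma's test in any of the 3 differences, with backgrounds of 0.741% and 0.0832% for astrocytes against neurons, 0.318% and 0.0378% for astrocytes against tissue, and 0% and 0.0529% for neurons against tissue. At an unadjusted p under 0.05 there were 2 (Top2a and Birc5), 2 (Birc5 and Hmgb2) and 0. The adjusted p was 0.339 for Top2a between astrocytes and neurons and 0.605 for Birc5 between astrocytes and tissue, and neither has a size here because both were near background in astrocytes.

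Of the other lists few genes responded to dexamethasone. Among cell type markers 1 of 9 mural markers rose in astrocytes, beside 1.41% of all genes. There 1 of 13 general neuronal genes fell, beside 0.363%. In astrocytes Orc6, a subunit of the origin recognition complex, rose by 0.76 ± 0.13 (limma, adjusted p = 0.0108), 1 of 31 replication genes against 1.41% of all genes. Fam83d, a spindle protein, went from 5.70 to 6.22 under saline, where it was not detected, to 6.55 to 7.81 under dexamethasone (adjusted p = 0.00846), 1 of 41 mitosis genes. The inhibitor Cdkn1a rose by 3.44 ± 0.23 (adjusted p = 4.18e-05), from 7.91 to 9.18 on the saline arrays to 11.7 to 12.3 on the dexamethasone arrays. In neurons Cdkn1a was 8.72 to 9.53 under saline and 8.82 to 9.41 under dexamethasone, and its responses differed between astrocytes and neurons by 3.41 ± 0.35 (adjusted p = 3.50e-07). Orc6 and Anln also differed between astrocytes and neurons in their response, by 0.83 ± 0.17 and 0.98 ± 0.24, and Fam83d passed this test (adjusted p = 0.00612), with no size because it was not detected on the astrocyte saline arrays. These were 1 of 31 replication and 2 of 41 mitosis genes, beside 0.741% of all genes called in this direction.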

How the data were processed

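Gene expression was measured on Illumina arrays from 30 samples. The authors deposited log2 intensities of 46174 probes that were not normalized between arrays, and a value table of unstated scale. The latter matched a second log2 taken of the quantile-normalized first table to within 5e-10 and had a median of 2.99 in each column. Per the labels' protocols, RNA was purified with RNeasy columns and biotin-labelled cRNA was made with an Illumina amplification kit. Scanner software and background handling are not given in sources used here.

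The planned detection p and negative controls were not used, since the tables hold none, and 1552 odorant, vomeronasal, trace amine and taste receptor probes took their place. Background was removed by limma's normexp (offset 16) fitted on those probes, and values were quantile-normalized and taken to log2 in R 4.3.3 with limma 3.58.1. A probe was detected where the share of receptor probes as bright was under 0.05, and 22552 probes of 13226 genes detected on at least 5 arrays were kept, the probe with the highest mean for each gene. Symbols were brought up to date for 28566 probes by Entrez ID and 2632 by accession, 4527 kept their own, and 10449 probes had none. The members named are all listed genes. The other lists are given as counts with up to 4 genes by smallest p, and members and lists were chosen with earlier results of these data known. Genes named beyond those 4 were chosen after their values were seen.

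Each of 12 comparisons was fitted with lmFit and eBayes on the groups compared, with Benjamini-Hochberg adjustment over all genes at 0.05. The number of arrays limits the precision. Arrays of the same replicate number correlated in their deviations from the group means by 0.19 in astrocytes, 0.17 in neurons and 0.05 in tissue between saline and dexamethasone, and the number marks a shared chip in the labels, so the fit with the number as a block is given where it changes a call. The fit was tested on simulated data first. Alternatives were the background step, offset 50, 75th percentile scaling, the filter, the probe, the variance model, the block, each array left out and all 30 arrays in one fit.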

Additional observations from a re-analysis of the deposited data

Results flagged for a closer look

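Of 112 groups of 5 arrays in which a gene was detected on every array, 6 held an array far from the other 4, and chance flags about 1 in 20 groups. In neurons under dexamethasone, replicate 4 was far below the others for Mcm2, at 6.86 where the others held 8.04 to 8.38, for Mcm5, at 9.98 against 10.8 to 11.1, and for Top2a, at 8.65 against 9.73 to 10.1. In astrocytes under dexamethasone, replicate 1 held Mcm5 at 7.96 against 7.51 to 7.63. In neurons under saline, replicate 3 held Mki67 at 10.1 against 9.02 to 9.33. In tissue under saline, replicate 3 held Ccnd1 at 10.6 against 11.0 to 11.1.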

How the results depend on the processing

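Of 2538 values of single genes under the alternatives, 2478 kept their call, 60 lost it and 0 reversed. With the filter at all 30 arrays only 11 genes were tested, so the counts were smaller by construction: 10 higher in neurons than tissue under saline and 8 under dexamethasone, 9 and 7 lower in astrocytes than neurons under saline and dexamethasone, and 2 lower in astrocytes than tissue under saline. With a replicate block 7 genes were higher in astrocytes than tissue under saline in place of 4, and with all 30 arrays in one fit 1 was, and the cause was not tested; the block changed no other count by over 1.5 times. On leaving out single arrays this count was 2 to 4, with 2 without astrocyte saline replicate 1 or tissue saline replicate 3. Over the same fits 27 to 28 genes were higher in neurons than tissue under saline and 25 to 27 under dexamethasone, with 1 lower throughout. Astrocytes were lower than neurons for 27 to 28 genes under saline and 26 to 27 under dexamethasone. In astrocytes against tissue 7 to 9 were lower under saline, and 2 to 4 higher and 2 to 4 lower under dexamethasone. No listed gene responded to dexamethasone under any alternative run. Dim genes limit what these arrays show: 6 listed genes with a probe stayed below detection.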
